A study of Mus musculus with 20 samples.

Results

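The endoplasmic reticulum (ER) stress and unfolded protein response genes were followed through growing colorectal liver metastases in mice. The set held 30 genes, chosen by name, of the 54532 genes in the deposited count tables, and all 30 passed the filter on low counts in the tissue table and in the sorted-cell table. They comprised 14 ER chaperones and folding enzymes, 4 genes of ER-associated degradation (ERAD), 6 stress sensors and transcription factors, and 6 targets of the transcription factor ATF4. The question was whether chaperones and ATF4 targets moved together or apart.

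RNA was sequenced from the livers of wild-type (WT) C57BL/6 mice after 1000000 MC38 cells, a mouse colon adenocarcinoma line, had been injected through the spleen, and from control livers given normal saline. The study's methods give the mice as female and 6 to 8 weeks old, whereas the tissue labels say male. The tissue groups were normal liver on day 0 (con, 2 libraries), tumor-free liver remote from the tumor on day 12 (L-con, 1 library), low-content tumor on day 9 (Lt, 2), medium-content tumor on day 9 (Mt3, 2) and day 11 (Mt2, 2, and Mt1, 2), and high-content tumor on day 12 (Ht, 3). The sorted groups were F4/80+ cells and CD11b+ cells, 3 libraries each, drawn with magnetic beads from medium-content tumor on day 11. Because the study describes the first and the third Ht library as identical material, they were added up, which left Ht with 2 samples. The tissue samples were centred on the tumor and included liver, in growing proportion of tumor from Lt to Ht. In such bulk samples fewer cells of a type and less RNA per cell cannot be told apart.

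When unfolded proteins build up in the ER, the sensors ATF6, IRE1 (encoded by Ern1) and PERK (encoded by Eif2ak3) are released and start separate branches of a common response. ATF6 and spliced XBP1 drive genes for chaperones and ERAD, which refold proteins or send them to the proteasome. PERK, like other kinases that sense lack of amino acids, lack of heme or the presence of viral RNA, slows translation and so raises ATF4, which drives genes of amino acid supply, of feedback and of cell death. Hepatocytes and plasma cells secrete much protein and are rich in this machinery.

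The letters bound by these factors can be searched in promoters, and 5 promoters are shown because their genes carry the contrast between chaperones, ERAD and ATF4 targets. Promoters were matched by symbol for 27 of the 30 genes in RefSeq (GRCm38.p6), with Atf6, Manf and Hyou1 unmatched. The 250 bases before the RefSeq start are given on the strand of the gene, and capitals mark an ER stress element (ERSE, CCAAT, then 9 bases, then CCACG), its second form in Herpud1 (ERSE-II, ATTGG, then any base, then CCACG) or an ATF4 element (TGATGNAA), on either strand.
Hspa5 (chr2:34771840-34772089, plus strand): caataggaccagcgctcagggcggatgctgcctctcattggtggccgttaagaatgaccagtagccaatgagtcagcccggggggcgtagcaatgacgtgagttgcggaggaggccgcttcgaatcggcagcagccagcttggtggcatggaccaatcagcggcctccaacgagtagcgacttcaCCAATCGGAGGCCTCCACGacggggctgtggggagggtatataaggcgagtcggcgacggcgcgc
Hsp90b1 (chr10:86705445-86705694, minus strand): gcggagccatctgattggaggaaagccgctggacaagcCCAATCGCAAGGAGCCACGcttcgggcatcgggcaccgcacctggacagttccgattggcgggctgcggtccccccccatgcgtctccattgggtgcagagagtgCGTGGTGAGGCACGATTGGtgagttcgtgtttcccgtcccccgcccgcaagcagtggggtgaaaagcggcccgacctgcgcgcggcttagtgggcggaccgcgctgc
Herpud1 (chr8:94386179-94386428, plus strand): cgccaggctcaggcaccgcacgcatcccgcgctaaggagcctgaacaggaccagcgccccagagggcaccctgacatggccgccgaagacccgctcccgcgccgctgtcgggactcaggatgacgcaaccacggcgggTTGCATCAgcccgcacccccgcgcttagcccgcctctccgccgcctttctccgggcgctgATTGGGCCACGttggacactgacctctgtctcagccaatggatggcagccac
Chac1 (chr2:119350992-119351241, plus strand): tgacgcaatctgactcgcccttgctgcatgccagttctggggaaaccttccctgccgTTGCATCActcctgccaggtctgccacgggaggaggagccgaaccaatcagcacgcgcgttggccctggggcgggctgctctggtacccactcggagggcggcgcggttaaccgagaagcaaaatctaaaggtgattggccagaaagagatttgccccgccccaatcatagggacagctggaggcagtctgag
Asns (chr6:7693210-7693459, minus strand): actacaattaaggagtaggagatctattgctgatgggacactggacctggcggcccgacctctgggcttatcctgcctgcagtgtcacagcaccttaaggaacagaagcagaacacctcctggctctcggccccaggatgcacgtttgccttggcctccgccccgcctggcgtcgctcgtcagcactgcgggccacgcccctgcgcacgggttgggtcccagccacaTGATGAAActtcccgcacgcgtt

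An ERSE was found in 7 of 12 chaperone promoters with a RefSeq entry (Hspa5, Hsp90b1, Calr, Canx, Pdia6, Dnajc3 and Creld2), in the ERAD gene Syvn1 and in 0 of 6 ATF4 targets, against 0.119% of all 32851 promoters of the same 300-base window, which runs 50 bases past the start. ERSE-II stood in Herpud1 and Dnajb11, against 0.0365% of all promoters. The ATF4 element was found in Chac1, Trib3 and Asns among the 6 ATF4 targets and in Herpud1, against 3.97% of all promoters. Herpud1 thus held letters of both kinds, and in Hsp90b1 the ERSE occurred once on each strand. The element TGACGTGG, bound by ATF6 and XBP1, was in 0 of the 27, against 0.676% of all. The gene annotation of the count tables places the start of Hspa5 120 bases and that of Asns 45 bases upstream of the RefSeq start, so both elements lie past that annotated start. These matches are letters and not measured binding.

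Depth was even, at 16032085 to 18246623 counts in the tissue libraries and 17785496 to 20548370 in the sorted ones. Levels are CPM, counts scaled to the library size, after TMM scaling, and levels of different genes are compared only per kilobase of gene length. All 12 hepatocyte markers were called lower from con to Ht. Their summed level was 178300 to 209300 CPM in con, 157100 in L-con, 23320 to 167500 from Lt to Mt1, and 3392 to 4816 in Ht. The libraries of a group differed, with 100100 CPM in Mt2_1 against 24370 in Mt2_2, and 93070 in Mt1_1 against 23320 in Mt1_2. Macrophage markers ran the other way, from 413 to 627.2 CPM in con to 2128 to 2135 in Ht, as did fibroblast markers, from 267.6 to 378.1 CPM to 6095 to 6903, and 10 proliferation markers, from 63.58 to 70.18 CPM to 1495 to 1519. Of 9 plasma cell markers tested, 8 had a positive change from con to Ht, with 2 called higher and 1 lower. Their sum was 345.6 to 550.1 CPM in con and 167.7 to 179.6 in Ht, most of it from Sdc1, which epithelial cells also make, at 335.2 to 522.6 CPM in con and 107.4 to 112 in Ht. The 20 markers of handling stress, immediate-early and heat-shock genes, summed to 2145 to 2366 CPM in con and 2929 in L-con, to 2858 to 2983 in Lt, 2813 to 3426 in Mt and 2922 to 3352 in Ht.

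The heat map of all 30 genes shows the pattern in outline. The mean level of the 14 chaperones lay above both con libraries in L-con, Lt and every Mt library but Mt1_2, and in Ht it was near con. ERAD genes, Atf6, Ern1 and Xbp1 were lowest in Ht, and among the ATF4 targets Asns and Chac1 rose.

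**Figure D1:**
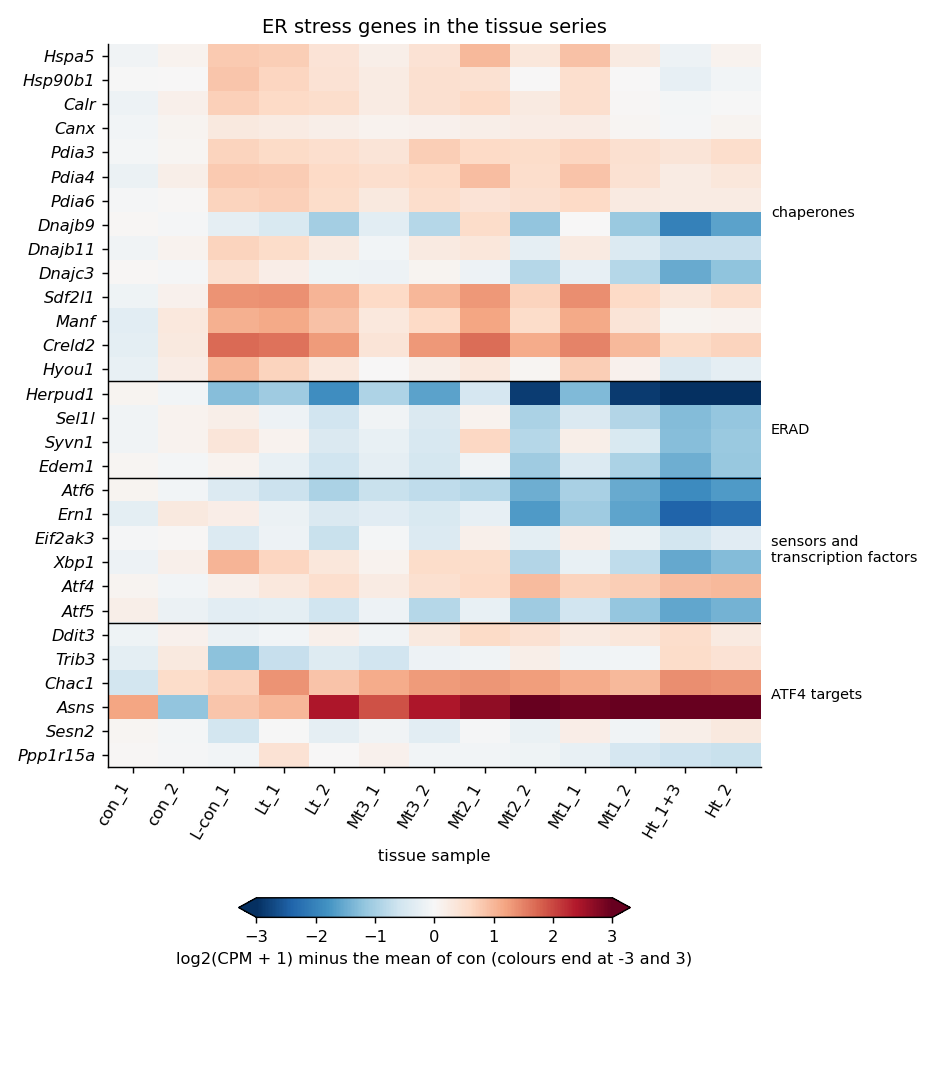
Heat map of the 30 genes (rows, by role) in the 13 tissue samples (columns), coloured by log2(CPM + 1) minus the mean of the 2 con libraries, with colours ending at -3 and 3. Herpud1 is darkest blue in both Ht samples and in Mt2_2 and Mt1_2, Asns is darkest red at the right end, and the chaperones Creld2 and Sdf2l1 are red between con and Ht.

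Among the sensors, the genes for ATF6 and IRE1 fell in high-content tumor, and that for PERK did not pass the test. Atf6, the membrane-bound transcription factor, read 184.3 and 162.2 CPM in con and 45.83 and 52.71 in Ht. Both Ht samples lay below every other tissue sample, and the change from con was -1.81 on the log2 scale (SE 0.26, edgeR adjusted p = 0.000429). In the 6 Mt libraries Atf6 ranged from 59.57 to 108.2 CPM, all below con, with a change of -1.04 (SE 0.20, edgeR adjusted p = 0.00337), which stayed significant but came under the 1-unit fold threshold (-0.94 to -0.95) without con_1, Mt2_2 or Mt1_2. Ern1, the IRE1 kinase and endonuclease, read 102.3 and 153.6 CPM in con and 23.06 and 25.33 in Ht (-2.40, SE 0.43, edgeR adjusted p = 0.0012). The medium-content values of Ern1 reached from 37.71 CPM in Mt2_2 to 105.8 in Mt2_1, the library of that group with more hepatocyte RNA. Eif2ak3, the PERK kinase, stayed between 17.46 and 32.99 CPM in all tissue samples and was called in no comparison.

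The transcription factors downstream parted. Xbp1, whose spliced form drives ERAD and chaperone genes, read 252.7 and 312.7 CPM in con and 96.57 and 113.7 in Ht, while the single L-con library stood at 573 and the Lt libraries at 439.6 and 354.1. Ht was the lowest and L-con the highest of the tissue groups, and the fall from con to Ht was -1.43 (SE 0.43, edgeR adjusted p = 0.0169), a call lost without con_2 or either Ht sample (adjusted p = 0.0582 to 0.0947). The gene counts do not separate spliced from unspliced Xbp1. Atf4 read 107.7 and 95.58 CPM in con and 113.5 in L-con, then 127.3 and 144.5 in Lt, 121.1 to 198.1 in the Mt libraries, and 195.1 and 200.1 in Ht. All 10 tumor-bearing samples lay above both con libraries. The change was 0.62 in Mt (SE 0.16, edgeR adjusted p = 0.0131) and 0.96 in Ht (SE 0.19, edgeR adjusted p = 0.00196), both under the fold threshold. Atf5, a related factor under ATF4 control, fell instead, with 497.4 and 391.9 CPM in con against 148.4 and 163.6 in Ht (-1.51, SE 0.36, edgeR adjusted p = 0.00545). Atf5 overlaps Nup62 and Il4i1 on the other strand, and the counting is not stated to use strand. Within single libraries, where scaling plays no part, the log2 ratio of Atf4 to Atf5 counts was -2.21 and -2.04 for con and 0.39 and 0.29 for Ht.

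The mean chaperone level was highest in L-con, Lt_1, Mt2_1 and Mt1_1. Hspa5, the ER Hsp70 chaperone BiP that holds the sensors inactive, read 750.1 and 879.6 CPM in con, 1354 and 1074 in Lt, 911.6 to 1593 in the Mt libraries, and 728.5 and 873.3 in Ht. Lt and Mt lay above con without overlap, while Ht and con overlapped. The Hspa5 changes did not pass the test, at 0.58 from con to Lt (SE 0.34, edgeR adjusted p = 0.298), 0.53 to Mt (SE 0.29, edgeR adjusted p = 0.155) and -0.02 to Ht (SE 0.34, edgeR adjusted p = 0.956). Creld2, an ER disulfide isomerase, and Sdf2l1, a cofactor of the BiP cycle, showed the clearest rise. Creld2 read 24.6 and 37.79 CPM in con and 96.19 and 75.94 in Lt (1.46, SE 0.36, edgeR adjusted p = 0.0247). Sdf2l1 read 28.76 and 34.23 CPM in con and 82.22 and 64.68 in Lt (1.22, SE 0.31, edgeR adjusted p = 0.0297). For neither gene did con and Lt overlap. Each call was lost when any 1 of the 4 libraries was left out (adjusted p = 0.0701 to 0.158 for Creld2 and 0.0764 to 0.162 for Sdf2l1).

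From con to Lt, 2 of the 30 genes were called higher and 0 lower, where called means an adjusted p of at most 0.05 and a log2 change of at least 1. Over all genes 12.4% were called higher and 0.256% lower. With 0 called lower, 8 genes had an unadjusted p under 0.05 in either direction, and DESeq2 also called 0 lower and 3 higher. Of the 14 chaperones 13 had a positive change, with a median of 0.56 against 0.10 over all genes, and the exception was Dnajb9, a J-domain cofactor of BiP, at 57.51 and 38.29 CPM in Lt against 80.89 and 77.72 in con. In Lt 10 of 10 proliferation, 6 of 8 fibroblast, 6 of 10 macrophage, 4 of 7 neutrophil, 1 of 9 plasma cell and 5 of 20 handling stress markers were called higher, and their part in the chaperone values was not tested. All 4 ERAD genes and 4 of 6 sensors and factors had a negative change, none of them called. The comparisons of Lt, Mt and Ht with normal liver share the same 2 con libraries.

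In medium-content tumor 3 genes were called higher and 1 lower, against 20.2% and 10.3% of all genes. Creld2 (1.19, SE 0.31, edgeR adjusted p = 0.0133), Chac1 and Asns rose and Atf6 fell. Creld2 lost its call without con_1 (adjusted p = 0.112). On adjusted p alone 7 were higher, against 27.2% of all genes. Sdf2l1 (0.97), the protein disulfide isomerases Pdia4 (0.65) and Pdia3 (0.57), and Atf4 rose with an adjusted p of at most 0.05 at a smaller fold. The median change of the chaperones was 0.40, against 0.08 over all genes. Among the 6 Mt libraries Mt2_1 and Mt1_1 had the highest Hspa5, Sdf2l1 and Manf, a secreted ER stress-inducible factor (154 and 149.2 CPM, against 83.84 to 102.7 in the others). Within Mt2 and Mt1 these were the libraries with more hepatocyte RNA. The Mt3 libraries, of day 9, held 132700 and 101800 CPM of hepatocyte markers and had lower levels of all 3 genes. In Mt 10 of 10 proliferation, 7 of 8 fibroblast, 8 of 10 macrophage, 6 of 7 neutrophil, 4 of 9 plasma cell and 12 of 20 handling stress markers were called higher. The remaining neutrophil marker and 4 of 12 hepatocyte markers were called lower. The summed neutrophil level did not rise clearly, at 43.72 to 80.2 CPM in con, 54.01 to 92.11 in Lt, 32.35 to 71.66 in Mt and 17.31 to 22.23 in Ht. The part of these markers, and of hepatocyte RNA, in the chaperone values was not tested.

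**Figure D2:**
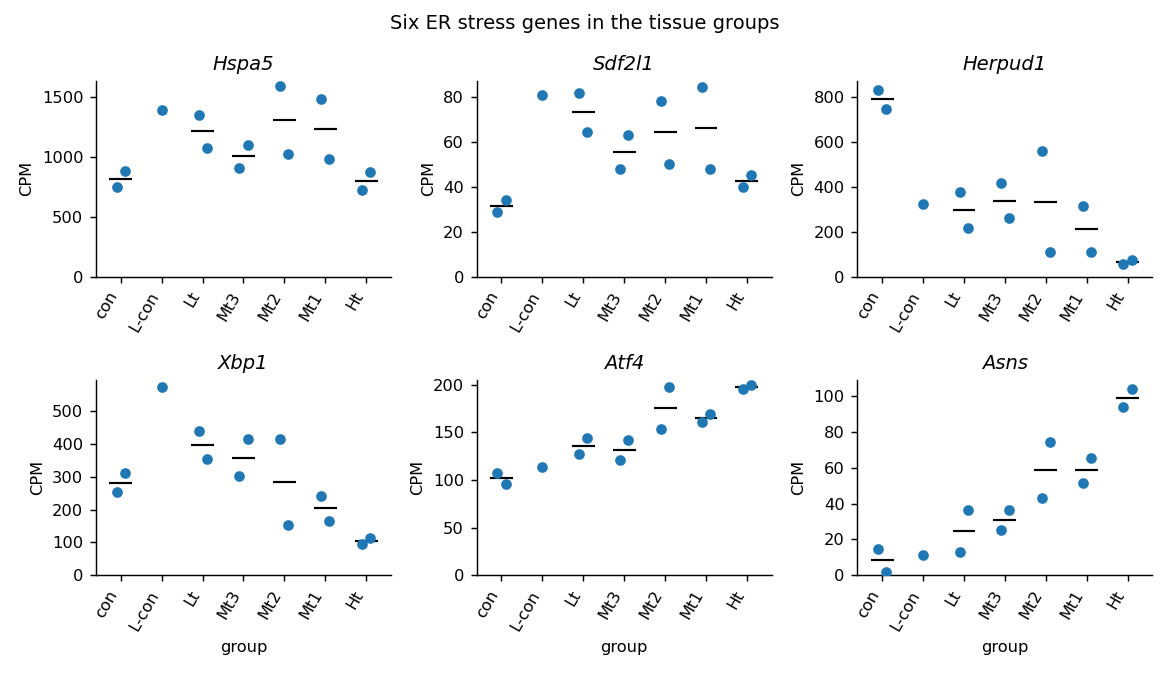
CPM of 6 genes (vertical axes, from 0) in each tissue group (horizontal axes), with a point for each sample and a line at the mean of 2. Hspa5 and Sdf2l1 peak between con and Ht, Herpud1 and Xbp1 are lowest in Ht, and Atf4 and Asns are highest there.

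L-con, the remote liver of tumor-bearing mice, was a single library and allows no test. In it 13 of 14 chaperones stood above both con libraries, as did 36% of all genes, and the median log2 ratio of the chaperones to the con mean was 0.74, against 0 over all genes. By a log2 ratio of at least 1, 4 of the 30 genes were higher and 2 lower, against 3.74% and 0.745% of all genes. Creld2 read 101 CPM, Sdf2l1 81.21, Manf 142.8 and Hspa5 1393, levels like those in Lt. Hsp90b1 (the ER Hsp90, GRP94) read 1072 CPM and Hyou1 (GRP170, an exchange factor of BiP) 336.5, each the highest of all tissue samples. Dnajb9, at 65.4 CPM, was the chaperone below both con libraries. Xbp1 was above both con libraries by a log2 ratio of 1.02, whereas Herpud1 was below both, at 324.5 CPM against 832.1 and 746.3. Of the ATF4 targets, 4 were below both con libraries, 1 above and 1 between, against 32.1% of all genes below and 36% above. Trib3 was lowest here of all tissue samples, at 4.448 CPM. Hepatocyte markers in L-con stood at 157100 CPM, below both con libraries. Above both con libraries were the sums of macrophage (952.9 CPM), fibroblast (645), proliferation (177.4), handling stress (2929), endothelial (528.1) and tumor epithelial markers (592.8). The last sum was 513.7 to 565.4 CPM in con and lower in Ht, at 221.6 to 299.9, so it did not follow tumor content. The part of these markers in the chaperone levels was not tested.

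Between normal liver and high-content tumor 2 genes were called higher and 10 lower, against 25.8% and 24.1% of all genes. The chaperones as a group had a median change of 0.00 against 0.09 over all genes, with 2 of 14 called, both lower. These were Dnajc3 (P58IPK, a J-domain protein that restrains PERK), at 422.9 and 405.3 CPM in con and 145.4 and 177.7 in Ht (-1.36, SE 0.32, edgeR adjusted p = 0.00452), and Dnajb9, at 18.67 and 25.4 CPM in Ht (-1.85, SE 0.56, edgeR adjusted p = 0.0165). Neither gene's Ht samples overlapped con. Dnajb9 lost its call without con_1 or without the pooled Ht_1 and Ht_3 (adjusted p = 0.0509 and 0.0973). The remaining 12 chaperones lay between -0.70 (Dnajb11) and 0.60 (Creld2), and none passed the test.

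All 4 ERAD genes were called lower in Ht. Herpud1, a membrane organiser of the ERAD complex, read 832.1 and 746.3 CPM in con, 377.1 and 217.5 in Lt, 107.5 to 558.8 in the Mt libraries, and 57.47 and 71.78 in Ht. No tumor-bearing sample reached the level of con, and both Ht samples were the lowest of all. The change to Ht was -3.61 (SE 0.78, edgeR adjusted p = 0.00317). Sel1l and Syvn1, the adaptor and the ubiquitin ligase of the same complex, changed by -1.24 (SE 0.34, edgeR adjusted p = 0.0101) and -1.22 (SE 0.43, edgeR adjusted p = 0.0324), and Edem1, a mannosidase-like lectin that picks glycoproteins for disposal, by -1.30 (SE 0.34, edgeR adjusted p = 0.00812). Sel1l and Edem1 lost their calls without the pooled Ht_1 and Ht_3 (adjusted p = 0.0631 and 0.0648), and Syvn1 when any 1 of the 4 samples was left out (0.0641 to 0.133). Herpud1, Dnajc3, Atf6, Ern1, Atf5 and Asns kept theirs in each case.

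Per kilobase of gene length the order of genes turned over. In con Herpud1 had the highest level of the 30 genes, at 356.7 and 319.9 CPM per kilobase, above Hspa5 at 177.4 and 208. In Ht Herpud1 stood at 24.63 and 30.77 and Hspa5 at 172.3 and 206.5. The log2 ratio of Hspa5 to Herpud1 counts, which does not depend on scaling, was -0.15 and 0.24 in con, 1.13 to 3.24 in Mt, and 3.66 and 3.6 in Ht. It was 3.24 in Mt2_2 and 3.19 in Mt1_2 against 1.51 in Mt2_1 and 2.23 in Mt1_1, so within both day-11 groups the library with less hepatocyte RNA lay nearer to Ht. In each of Lt, Mt3, Mt2 and Mt1 the library with less hepatocyte RNA also had less of all 4 ERAD genes and of Atf6, Ern1 and Atf5, and more Asns. The part of tissue make-up in these changes was not tested.

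Among ATF4 targets Asns and Chac1 rose, and no other was called against con. Asns, the asparagine synthetase, read 14.78 and 2.067 CPM in con, 12.96 and 36.42 in Lt, 25.16 to 74.38 in the Mt libraries, and 93.7 and 104 in Ht. Every Mt and Ht sample lay above both con libraries, which lay far apart, and Lt overlapped con. The change was 2.5 to Mt (SE 0.68, edgeR adjusted p = 0.0167) and 3.56 to Ht (SE 0.78, edgeR adjusted p = 0.00334). Leaving out a con library moved the change to Mt to 1.68 (without con_2, adjusted p = 0.0684, no call) or 4.52 (without con_1) and the change to Ht to 2.74 or 5.57. Chac1, which degrades glutathione, read 1.505 and 4.299 CPM in con, 8.308 and 5.627 in Lt, 6.203 to 8.073 in the Mt libraries, and 8.513 and 8.281 in Ht. Con lay below all of these, Lt overlapped Mt and Ht, and the change was 1.30 to Mt (SE 0.35, edgeR adjusted p = 0.0161) and 1.53 to Ht (SE 0.40, edgeR adjusted p = 0.00861). Without con_1 the call was lost in both, with changes of 0.75 and 0.96.

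Ddit3, the pro-apoptotic factor CHOP, read 6.549 and 8.02 CPM in con and 10.94 and 8.976 in Ht and was called in no tissue comparison. Its locus overlaps Mars, Gm4189 and another annotated entry also named Ddit3 on the same strand. The Ddit3 entry with the most counts was used, and part of its counts is uncertain. The same holds for Ppp1r15a, which overlaps Tulp2, and Sesn2, which overlaps Gm12981, and for Hsp90b1, Pdia3, Pdia4, Pdia6, Dnajb9, Dnajb11, Manf, Herpud1, Syvn1, Atf6 and Eif2ak3, which overlap other annotated genes. Sesn2, a stress-induced inhibitor of mTORC1, stayed between 11.7 and 21.64 CPM in all tissue samples. Ppp1r15a (GADD34), the phosphatase subunit that restores translation, fell with 13.98 and 13.31 CPM in con against 8.513 and 8.211 in Ht (-0.71, SE 0.20, edgeR adjusted p = 0.0123), under the fold threshold. Trib3, a pseudokinase that feeds back on ATF4, read 17.7 and 16.35 CPM in Ht against 9.47 and 14.8 in con, without overlap and without a call (0.49, SE 0.26, edgeR adjusted p = 0.126).

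**Figure D3:**
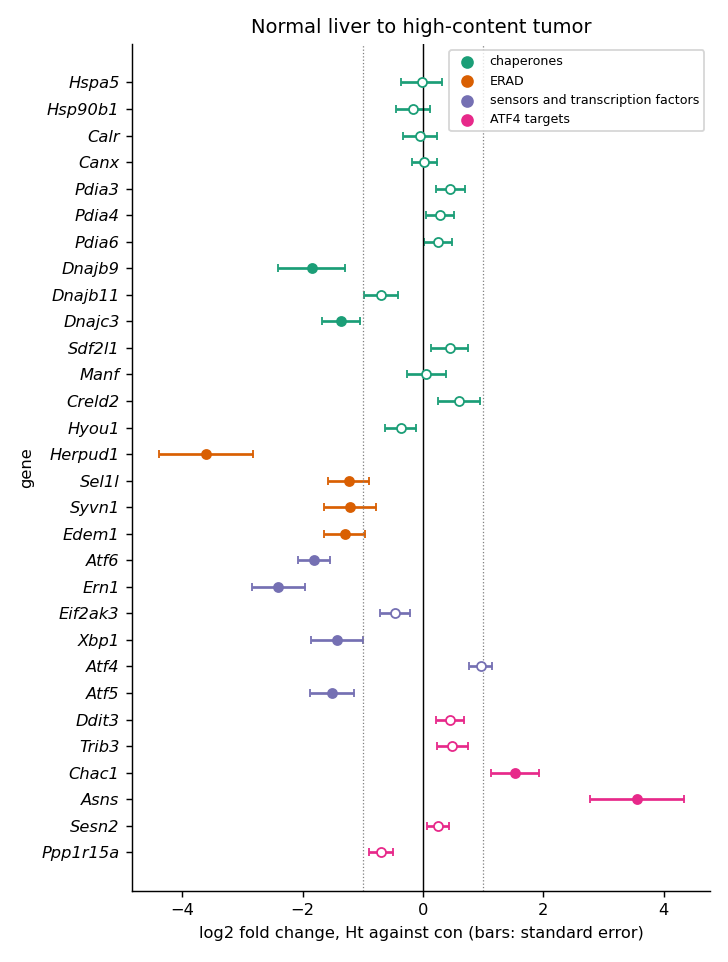
Log2 fold change of each of the 30 genes from con to Ht (horizontal axis), with the standard error as bars and colours for role; filled points were called and dotted lines mark a change of 1 in either direction. ERAD genes and sensors lie left of 0, most chaperones around it, and Asns farthest right at 3.56.

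These directions are relative to TMM scaling. Total-count scaling moves the median of all genes by 1.28 from con to Ht, 0.72 to Mt and 0.87 from Lt to Ht, and then 16 genes are called higher and 2 lower in Ht (51.3% and 13.1% of all genes), 10 and 0 in Mt (32.3% and 3.35%), and 6 and 2 from Lt to Ht (36.2% and 12.1%). Herpud1 and Ern1 were the 2 still called lower in Ht, and Hspa5 then rose by 1.16. A difference between lists taken within a library hardly depends on the scaling.

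The mean log2(CPM + 1) of the 14 chaperones minus that of the 6 ATF4 targets was 4.46 ± 0.24 (SD, n = 2) in con and 5.31 in the L-con library. Lt had 4.60 ± 0.27 and Mt3 had 4.28 ± 0.037 (SD, n = 2 each). Mt2 had 4.11 ± 0.42, Mt1 had 4.15 ± 0.36 and Ht had 3.34 ± 0.12 (SD, n = 2 each). Both Ht samples, at 3.26 and 3.43, lay below every other tissue library, and L-con lay above them all. Much of the fall came with Asns. With Asns left out of the ATF4 targets, an alternative chosen after seeing the data, the difference was 4.43 and 4.31 in con and 3.73 and 3.94 in Ht. Ht was still below every other tissue library. Lt, at 4.83 and 4.71, and Mt3, at 4.47 and 4.59, then lay above both con libraries. Mt2 (4.71 and 4.24) and Mt1 (4.76 and 4.33) overlapped con. With all 6 targets, con overlapped with Lt and with each Mt group, and Lt lay above Mt3 without overlap. The chaperones minus the 4 ERAD genes went the other way, with -0.48 and -0.28 for con and 1.24 and 1.33 for Ht. Both Ht samples lay above every other tissue library in that difference. No test was run on these differences.

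**Figure D4:**
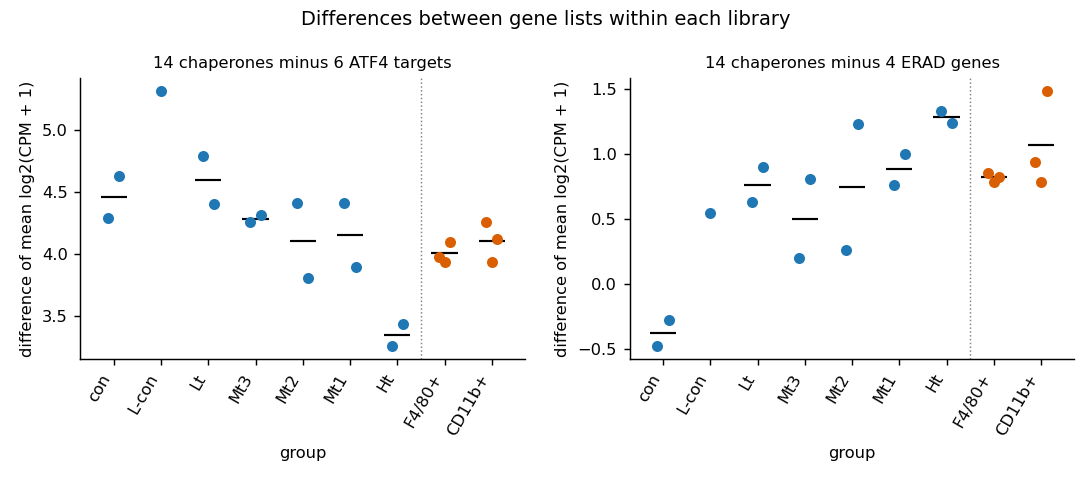
Difference in mean log2(CPM + 1) between gene lists (vertical axes) in every library by group, with lines at group means; tissue is left of the dotted line and sorted cells right of it. Chaperones minus ATF4 targets is lowest in Ht (3.26 and 3.43), and chaperones minus ERAD genes is lowest in con (-0.48 and -0.28).

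From low-content to high-content tumor 2 genes were called higher and 7 lower, against 11.7% and 20.2% of all genes. All 14 chaperones had a negative change, with a median of -0.75 against -0.01 over all genes, though with total-count scaling 10 of the 14 had a positive change, with a median of 0.16 against 0.87 over all genes. Here 12 of 12 hepatocyte, 5 of 9 tumor epithelial (1 higher), 4 of 10 endothelial and 2 of 7 neutrophil markers were called lower. Called higher were 9 of 10 proliferation, 4 of 8 fibroblast, 3 of 10 macrophage and 3 of 20 handling stress markers (2 lower). The part of these markers in the chaperone values was not tested. Dnajc3 (-1.40, SE 0.32, edgeR adjusted p = 0.00815) and Dnajb11, a BiP co-chaperone (-1.12, SE 0.29, edgeR adjusted p = 0.0127), were called lower. Herpud1 (-2.20), Atf6 (-1.01), Ern1 (-2.07), Xbp1 (-1.92) and Atf5 (-1.07) were called lower too, and Asns (2.00, SE 0.72, edgeR adjusted p = 0.0475) and Trib3 (1.11, SE 0.26, edgeR adjusted p = 0.00982) higher. Trib3 read 6.947 and 8.861 CPM in Lt and 17.7 and 16.35 in Ht. These calls rested on few samples. Without Lt_1, and without the pooled Ht_1 and Ht_3, Ern1 was the 1 gene still called, and it kept its call whichever sample was left out, while the total called ranged from 0 to 2 higher and from 1 to 8 lower.

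The wider pathway was described with 60 other ER folding genes and 47 other stress response genes that passed the filter. From con to Ht, 6 of the 60 folding genes were called higher and 15 lower, and 19 of the 47 stress genes higher and 10 lower, beside the 25.8% and 24.1% of all genes. Of the stress genes the largest changes were the serine synthesis enzymes Phgdh (8.48) and Psat1 (8.18), which rose, and the cysteine synthesis enzyme Cth (-6.60), which fell. Among folding genes Kdelr3, an ER retention receptor, rose from a level in con at or under the 3-count floor, the collagen-linked factor Creb3l1 rose by 3.42 and the hepatocyte factor Creb3l3 fell by 4.88. In Lt, where 12.4% of all genes were called higher, 4 of 60 and 12 of 47 were, led by Kdelr3, Creb3l1 (1.90) and Bak1 (1.68), a cell death effector, and by Phgdh (6.35), Psat1 (5.96) and Nupr1 (4.25), a stress-induced chromatin protein. In Mt the leading genes were Kdelr3, Creb3l1 (2.81) and Bak1 (1.93), and Phgdh (7.29), Psat1 (7.03) and the proline synthesis enzyme Aldh18a1 (4.92), with 6 and 18 called higher and 1 and 4 lower, beside 20.2% and 10.3% of all genes.

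Sorted F4/80+ and CD11b+ cells of the day-11 metastases gave no call among the 30 genes. The edgeR test called 0 genes higher and 0 lower in F4/80+ against CD11b+ cells, DESeq2 likewise, and 2 had an unadjusted p under 0.05, while 0.00701% of all genes were called higher and 0.0701% lower. Those 2 were Sdf2l1 (-0.72, SE 0.27, edgeR adjusted p = 0.439), at 165, 116.8 and 131.3 CPM in F4/80+ and 182.3, 175.6 and 322 in CD11b+ cells, and Creld2 (-0.62, SE 0.25, edgeR adjusted p = 0.462). For Sdf2l1 the groups did not overlap, and CD11b+_3 stood far above the others. That library also had the highest Manf, at 225.8 CPM against 88.14 to 148 in the others, the lowest Sel1l, at 68.63 against 108 to 133.1, and the highest neutrophil marker sum, 4150 CPM against 171.8 to 1280. Hspa5 differed by -0.16 (SE 0.18, edgeR adjusted p = 0.696) and Chac1 by -0.93 (SE 0.42, edgeR adjusted p = 0.472). Nothing in the labels ties the libraries to separate animals, so these tests measure the spread between libraries only.

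Against the Mt2 tissue, both sorted populations had low Asns, Trib3, Chac1 and Atf5 and high Ppp1r15a and Sesn2, so the ATF4 targets split. Tissue and cells come from separate tables, so a difference of table and one of material cannot be told apart. In F4/80+ cells 2 genes were called higher and 7 lower, against 17.2% and 25.2% of all genes (on adjusted p alone 4 and 11, against 23.5% and 30.8%), and in CD11b+ cells 3 and 7, against 17.6% and 26.3%. Both comparisons share the Mt2 libraries. On the joint scale macrophage markers summed to 13330 to 20300 CPM in the sorted cells and 1363 to 1830 in Mt2, and hepatocyte markers to 99.01 to 341.2 and 25540 to 105000.

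On the joint scale Asns read 45.04 and 77.96 CPM in Mt2, 9.479 to 11.09 in F4/80+ and 8.29 to 8.92 in CD11b+ cells (-2.59, SE 0.52, edgeR adjusted p = 7e-04, and -2.85, SE 0.52, edgeR adjusted p = 0.000324). Trib3 read 11.39 and 14.12 CPM in Mt2 and 1.281 to 2.495 in the 6 sorted libraries, and Chac1 8.461 and 7.991 against 0.641 to 2.284. Atf5 read 398.8 and 222.1 CPM in Mt2 and 16.54 to 25.76 in sorted cells (-3.91, SE 0.32, edgeR adjusted p = 2.97e-07 for F4/80+), while Atf4 overlapped, at 160.7 and 207.7 against 128.9 to 213.8. Ppp1r15a went from 13.41 and 13.06 CPM to 114.1 to 206.6 (3.48, SE 0.28, edgeR adjusted p = 2.85e-07 for F4/80+, and 3.76, SE 0.28, edgeR adjusted p = 1.42e-07 for CD11b+). Sesn2 went from 17.9 and 15.9 CPM to 37.01 to 55.55. For Asns, Trib3, Chac1, Atf5, Ppp1r15a and Sesn2 the sorted libraries did not overlap Mt2. On the same scale the handling stress markers summed to 10800 to 20930 CPM in sorted cells and 3534 to 3591 in Mt2, and their part in the rise of Ppp1r15a and Sesn2 was not tested.

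**Figure D5:**
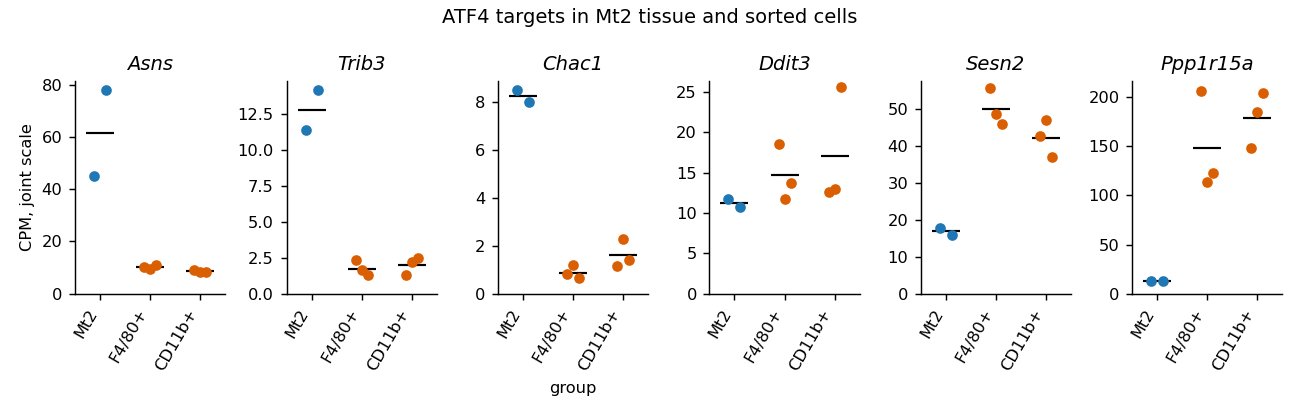
CPM on the joint scale (vertical axes, from 0) of the 6 ATF4 targets in Mt2 tissue (blue, 2 samples) and in sorted F4/80+ and CD11b+ cells (orange, 3 libraries each), with lines at the means. Asns, Trib3 and Chac1 are lower and Sesn2 and Ppp1r15a higher in the sorted cells without overlap, and Ddit3 overlaps.

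Of the chaperones, Dnajc3 (-1.86 in F4/80+ and -1.90 in CD11b+ cells, edgeR adjusted p = 1.37e-05 and 1.01e-05) was lower in both populations, and Sdf2l1 was higher, at 1.58 in CD11b+ cells (SE 0.32, edgeR adjusted p = 0.000761) and 0.91 in F4/80+ cells (SE 0.31, edgeR adjusted p = 0.0232), under the fold threshold. Other chaperones were lower under that threshold. Hsp90b1 changed by -0.84 and -0.82 (edgeR adjusted p = 0.00615 and 0.00684) and Canx, a lectin chaperone, by -0.51 and -0.57 (0.0256 and 0.0136). Creld2 changed by -0.89 and Pdia4 by -0.67 in F4/80+ cells (edgeR adjusted p = 0.0261 and 0.0236). In F4/80+ cells 11 of 14 chaperones had a negative change, with a median of -0.48 against -0.12 over all genes, and in CD11b+ cells 9 of 14, with a median of -0.24 against -0.084. Without Mt2_1 the medians were -0.14 and -0.018. Dnajb9 and Herpud1 were called lower in both. Without Mt2_1 Dnajb9 changed by -0.18 and -0.14 and Herpud1 by -0.20 and 0, with no call. The Herpud1 call in CD11b+ cells was also lost without CD11b+_1 (edgeR adjusted p = 0.054) or CD11b+_2 (0.051). Hspa5 read 1669 and 1074 CPM in Mt2 and 855.6 to 1165 in sorted cells and was not called. The chaperone minus ATF4 target difference was 4.002 ± 0.082 (SD, n = 3) in F4/80+ and 4.10 ± 0.16 (SD, n = 3) in CD11b+ cells. These values lay between Ht and con and near Mt2 (4.11 ± 0.42, SD, n = 2), and they average ATF4 targets that went in opposite directions. With Asns left out, the alternative chosen after seeing the data, they were 3.87 to 4.09 in F4/80+ and 3.79 to 4.18 in CD11b+ cells. Both ranges then overlapped Ht (3.73 and 3.94).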

How the data were processed

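RNA sequencing was analysed from 14 tissue libraries and 6 libraries of sorted cells. The authors deposited raw gene counts in a tissue table and a sorted-cell table. The submitters' processing notes name CASAVA, HISAT2 2.0.5 and featureCounts 1.5.0-p3, and the genome was GRCm38 (mm10). Whether counting used strand is not given in the sources used here.

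Counts were fitted with edgeR 4.0.16 in R 4.3.3 (quasi-likelihood F test, TMM scaling, filterByExpr, Benjamini-Hochberg adjustment over all genes tested, with a call where the adjusted p was 0.05 or less and the log2 fold change reached 1 in either direction). One fit took the 13 tissue samples, with Ht_1 and Ht_3 summed, one the 6 sorted libraries, and a joint fit all 19. Mt is the mean of Mt3, Mt2 and Mt1. The filter left 17187, 14263 and 18407 genes. Levels per kilobase used the gene lengths of the tables, and list differences used log2(CPM + 1). The scripts were tested on simulated data. All 30 genes are accounted for, and of 2 further pathway lists the 3 called genes with the largest change in each comparison are named. The genes, lists and tests were chosen with earlier results of these data known. Alternatives were DESeq2 1.42.0, total-count scaling, other filters, no fold threshold, only the groups compared, a replicate block, other handling of Ht, another pseudocount, and leaving out each replicate. Where nothing says that libraries of a group came from separate animals, p-values measure the spread between libraries. Depth covers counting error only and leaves genes near 10 counts imprecise.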

Additional observations from a re-analysis of the deposited data

Results flagged for a closer look

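Hyou1, the BiP exchange factor GRP170, had 1 medium-content library apart from the others. Mt1_1 read 283.1 CPM against 171.6 to 210.2 in the other 5 libraries, and its gap was 0.654 of the whole range, above Dixon's critical value for 6 samples. All 30 genes were examined in this way, and chance flags about 1 in 20 such groups. Mt1_1 also had the highest sum of tumor epithelial markers of these libraries, 1032 CPM against 463.7 to 641.8. That sum was 513.7 to 565.4 CPM in con and lower in Ht, at 221.6 to 299.9, so it did not follow tumor content. The hepatocyte marker sum of Mt1_1 (93070 CPM) was below those of Mt3_1, Mt3_2 and Mt2_1 (132700, 101800 and 100100). The part of these in the Hyou1 value was not tested.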

How the results depend on the processing

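With 2 samples in most groups, calls near the threshold turned on single libraries. In counts of called genes given as higher and lower, leaving out each replicate gave 0 to 1 and 0 from con to Lt, 1 to 4 and 0 to 3 from con to Mt, 2 and 5 to 8 from con to Ht, 0 to 2 and 1 to 8 from Lt to Ht, 0 and 0 between the sorted populations, 2 to 4 and 5 to 11 from Mt2 to F4/80+, and 3 and 5 to 11 from Mt2 to CD11b+ cells.

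Total-count scaling moved the median of all genes by 0.40 from con to Lt, 0.72 to Mt, 1.28 to Ht and 0.87 from Lt to Ht. With it, 10 were called higher and 0 lower from con to Mt (32.3% and 3.35% of all genes), 16 and 2 to Ht (51.3% and 13.1%), and 6 and 2 from Lt to Ht (36.2% and 12.1%). It reversed the median of sensors and factors from con to Mt (0.24) and between the sorted populations (0.070), the chaperone median from con to Ht (1.18) and Lt to Ht (0.16), Hspa5 (1.16) and Ppp1r15a (0.48) from con to Ht, and Hspa5 (0.31) and Hyou1 (0.059) from Lt to Ht. With no filter 4 were called higher and 1 lower from con to Lt, 2 lower from con to Mt and 4 lower from Lt to Ht. Requiring 10 counts in every library gave 0 lower from con to Mt, DESeq2 gave 2, and fitting only the groups compared gave 1 lower from con to Lt. With no fold threshold 7 were higher from con to Mt, and 4 higher and 11 lower from Mt2 to F4/80+. With Ht_3 left out 0 were higher from Lt to Ht, where Trib3 changed by 0.98 and Asns had an edgeR adjusted p of 0.0555. A pseudocount of 0.1 moved the chaperone minus ATF4 target difference to 4.39 in Mt3, 4.28 in F4/80+ and 4.31 in CD11b+ cells, and leaving Asns out of the ATF4 targets, an alternative added after seeing the data, to 4.53 in Mt3, 4.54 in Mt1 and 3.83 in Ht. The cause of each of these was not tested.

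The change of Hspa5 from con to Ht, near 0, turned to 0.10 with 10 counts in every library, 0.092 with no filter, 0.026 with only the groups compared, 0.09 without con_2 and 0.10 without the pooled Ht_1 and Ht_3, and was -0.16 without Ht_2. The ATF4 target median between the sorted populations ranged from -0.49 without F4/80+_1 to 0.036 without CD11b+_3. From without Mt2_2 to without Mt2_1, the ERAD median ranged from -1.12 to 0.11 (F4/80+) and -1.31 to 0.064 (CD11b+), that of sensors and factors from -0.54 to 0.25 and -0.60 to 0.24, and Hspa5 in CD11b+ cells from -0.59 to 0.011.

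Replicate numbers did not pair the samples of the groups compared (correlations of deviations from -0.149 to 0.144). The Mt groups were not checked against each other. Their day-11 hepatocyte sums ran by number, with 100100 and 93070 CPM in Mt2_1 and Mt1_1 and 24370 and 23320 in Mt2_2 and Mt1_2. The replicate block gave 2 lower from con to Mt and 3 higher and 8 lower from Mt2 to F4/80+. From con to Lt a crossed pairing, added after the data were seen, gave 2 higher and 0 lower. Over all alternatives 162 counts and differences stayed near the reported value, 17 counts were larger and 20 smaller by over 1.5 times, and 6 differences moved by over 1 SD. Of values for single genes 827 kept direction and call, 83 lost the call, 43 gained it and 10 reversed, and of list medians 278 stayed, 41 moved and 9 reversed. The planned comparison of protein tails was not run.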

Other observations

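Beyond the 30 genes, the other ER folding genes and the other stress response genes moved as follows in the remaining comparisons. From Lt to Ht, 3 of 60 folding genes were called higher and 14 lower, beside 11.7% and 20.2% of all genes, led by Creb3l3, a hepatocyte transcription factor (-4.34), Derl3, an ERAD channel protein (-3.72), and Ero1b, an ER oxidase (-2.49). Of 47 stress genes 12 were called higher and 6 lower, led by the transsulfuration enzymes Cth (-5.21) and Cbs (-5.20) and the alanine transaminase Gpt2 (-2.56).

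In sorted cells against Mt2, 2 of 60 folding genes were called higher and 13 lower in each population, beside 17.2% and 25.2% of all genes for F4/80+ and 17.6% and 26.3% for CD11b+ cells. Creb3l3 (-5.87 in F4/80+ and -6.15 in CD11b+ cells), Fkbp11, a folding isomerase (-3.94 and -3.89), and Kdelr3 (-3.40 and -4.09) led. Of the stress genes 5 were called higher and 13 lower in F4/80+ cells, and 7 and 15 in CD11b+ cells. Cth, at -9.08 and -9.05, led with Cbs and Fgf21, a hormone of the liver, whose sorted libraries held few counts. Between F4/80+ and CD11b+ cells edgeR called 0 genes of either list, with 11 folding genes and 1 stress gene at an unadjusted p under 0.05.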
